A study of Mus musculus with 4 samples.

Results

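The comparison described here set the heart 8 weeks after transverse aortic constriction (TAC) against the heart 2 weeks after it. TAC narrows the aortic arch of the mouse with a suture, so that the left ventricle pumps against a raised pressure from the day of surgery. The study took the early time point as the hypertrophic response and the late one as the heart failure phase. Total RNA of excised hearts from male mice was hybridised to a 1-colour oligonucleotide microarray. The methods say that hearts were cut before freezing and do not name the part that gave the RNA. Sham-operated mice of the same ages, which had surgery without the constriction, gave the corresponding pair of arrays. The strain named in the methods is C57BL/6J, with no transgene, deletion or drug in any of these groups. By the labels the early groups were 10 weeks and the late ones 16 weeks of age, while the methods place surgery at 12 weeks, so the ages of the animals are not settled. Each condition had 1 array, hybridised with the pooled RNA of between 4 and 6 hearts, to which every mouse gave 500 ng. The comparison therefore had 2 of the 4 arrays as its members, and the other 2 gave the sham change that is set beside the TAC changes. With 1 array a condition there was no replicate and no test, and the number of arrays limits the precision of every value below. The difference between 8 and 2 weeks after TAC cannot be told apart from a difference between the pools of mice, from the age of the animals or from anything else that separated the days of collection.

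A heart that pumps against a raised pressure first thickens. Its cardiomyocytes take up again a set of genes of the fetal ventricle, which includes the natriuretic peptides and the slow myosin heavy chain, and its fibroblasts lay down matrix. When the load persists, many hearts dilate and fail, a phase known for secreted stress factors, altered fuel use and scarring.

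The signal of a probe is given as log2 of the background-subtracted spot intensity minus the 75th percentile of its array, and a change is the difference of such values, 8 weeks minus 2 weeks. The TAC change compares the TAC arrays and the sham change compares the sham arrays. All 4 arrays lay on 1 slide and were scanned in 1 run. The 75th percentile of the intensity lay between 206 and 248, 54.7% to 58.5% of the 55681 probes were well above background by the scanner software's flag, and 0 spots were saturated. The defining markers of the working cardiomyocyte were bright in all 4 pools, with signals of 10.86 on the sham array at 2 weeks and 10.55 on the TAC array at 8 weeks for Myh6, the fast myosin heavy chain, and of 10.05 and 9.84 for cardiac troponin T (Tnnt2) on the same arrays. Xist, which female cells express, was not well above background on either TAC array. The error within an array was read from 278 probes printed as 10 spots each. The SD of the TAC change over the spots of 1 probe was 0.147 in all, 0.284 for probes below 0.25 times the 75th percentile and 0.0736 for probes above the 75th percentile. That error leaves out differences between mice, between pools and between hybridisations.

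Of 30896 probes well above background on both TAC arrays, 195 were over 2-fold higher at 8 than at 2 weeks (0.631%) and 178 were over 2-fold lower (0.576%). Between the sham arrays the same rule gave 117 higher (0.394%) and 102 lower (0.344%) of 29694 probes. The number of probes past 2-fold was therefore larger between the TAC pools than between the sham pools in both directions, at a size that left most probes within the fold. The balance between higher and lower probes depended on the scaling. It was 257 higher and 126 lower after TAC when each array was centred on its median, 258 and 115 after cyclic loess, and 455 and 68 without any scaling between the arrays. With normexp background correction the counts were 54 and 27. That correction added an offset of 50 to every intensity, which by itself makes the folds of dim probes smaller. For lower probes the order of TAC and sham turned at 3-fold, with 28 after TAC and 45 after sham surgery, and with normexp, with 27 and 33.

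Taking for each gene the probe with the highest mean signal, 14758 genes were measured on both TAC arrays. Their median TAC change was 0.03. At 8 weeks 107 genes were over 2-fold higher (0.725%) and 74 over 2-fold lower (0.501%), and at 1.5-fold the counts were 419 (2.84%) and 424 (2.87%). These shares are the background against which the gene groups are read below. On the 14250 genes measured on all 4 arrays, 83 were over 2-fold higher after TAC, of which 55 had a sham change within 0.5 on the log2 scale and 7 were over 2-fold higher after sham surgery too. Among the 67 that were over 2-fold lower after TAC, 46 had a sham change within 0.5, 2 were over 2-fold lower after sham surgery too, and 1 was over 2-fold higher there. Across those genes the TAC change and the sham change had a Pearson r of 0.291 and a Spearman rho of 0.358, as a description over genes that share the probes and the slide.

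**Figure D1:**
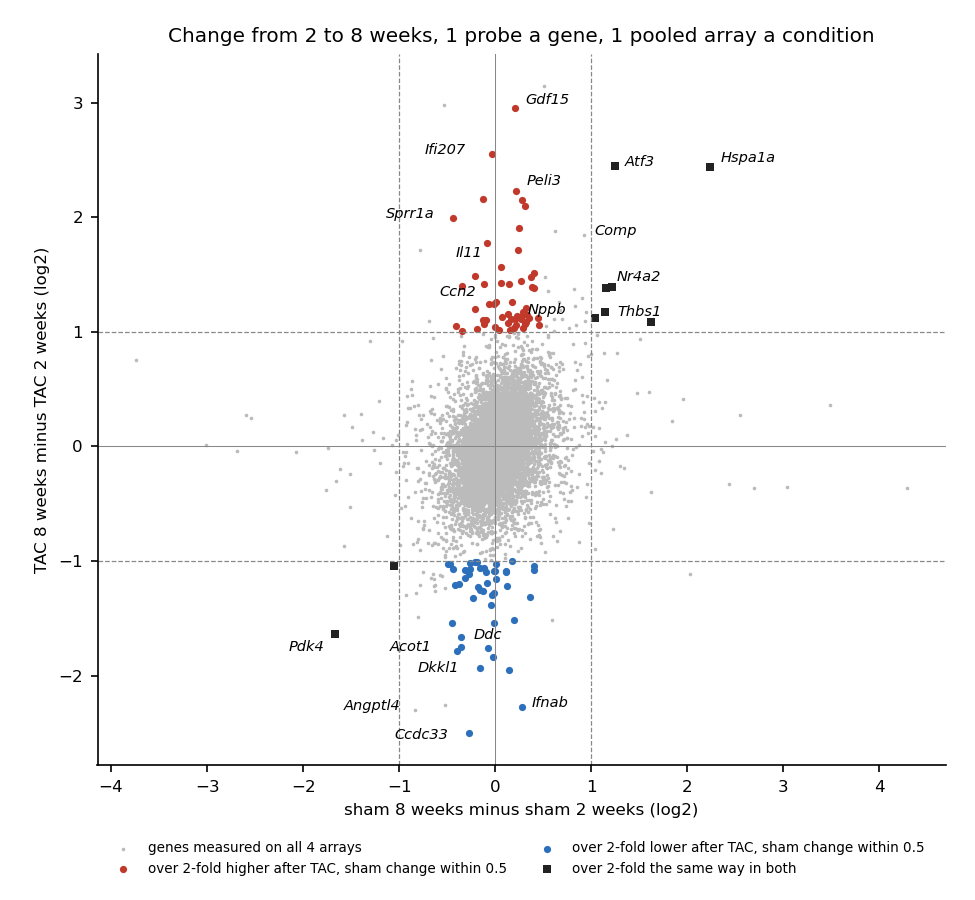
The TAC change (vertical axis) and the sham change (horizontal axis) of each of 14250 genes measured on all 4 arrays, both 8 weeks minus 2 weeks on the log2 scale, with dashed lines at 2-fold. The 55 genes over 2-fold higher and the 46 over 2-fold lower after TAC with a sham change within 0.5 form the upper and lower columns, while Hspa1a, Atf3 and Pdk4 lie off the vertical axis since the sham pools moved the same way.

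A single array can also stand out for a gene. Over the 14250 genes, the array of TAC at 8 weeks was over 2-fold above each of the other 3 for 50 genes, against 12 for TAC at 2 weeks, 16 for sham at 8 weeks and 19 for sham at 2 weeks. At over 4-fold the counts were 4 for TAC at 8 weeks, 0 for TAC at 2 weeks, 6 for sham at 8 weeks and 5 for sham at 2 weeks. Large single-array signals thus also occurred on the sham arrays, for example for Klhl1 on the sham array at 8 weeks, whose sham change was 4.29 and whose TAC change was -0.37. A gene high on 1 array alone, with no second probe, carries that limit.

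The genes that cardiomyocytes induce under load went further up from 2 to 8 weeks. Of 16 such genes on the list, 15 were measured on both TAC arrays, 14 of them had a TAC change above 0, and 7 passed 1.5-fold and 2 passed 2-fold upward, while none was lower by 1.5-fold. The median TAC change of the list was 0.57, beside 0.03 over all genes, and its median sham change was 0.08. Nppb, the gene of B-type natriuretic peptide, which the ventricle secretes when its wall is stretched, had signals of 5.37 and 5.58 in the sham pools at 2 and 8 weeks and of 6.40 and 7.52 in the TAC pools. Both TAC pools lay above both sham pools, and Nppb was 2.17-fold higher at 8 than at 2 weeks after TAC. Myh7, the slow myosin heavy chain of the fetal ventricle, had signals of 6.12 and 6.11 in the sham pools and of 8.83 and 9.81 in the TAC pools. The sham pools were alike for Myh7, and its TAC change of 0.98 came just short of 2-fold. Rcan1, an inhibitor of calcineurin that calcineurin itself induces, had 1.77 and 2.09 in the sham pools and 2.72 and 3.80 in the TAC pools, which is 2.11-fold higher at 8 weeks.

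Other members of the list had smaller changes on the same side. Ankrd1, a stretch-sensing protein of the sarcomere and nucleus, had a TAC change of 0.78 and a sham change of 0.08. The actin regulator Enah had a TAC change of 0.67 and a sham change of 0.15, and the tubulin Tubb2b had 0.70 and 0.32. The second probe of each had a TAC change of 0.48 and 0.59. Nppa, the gene of atrial natriuretic peptide, was at 7.56 and 7.20 in the sham pools and at 9.40 and 9.85 in the TAC pools, so most of its distance from the sham pools was already there at 2 weeks. Acta1, the skeletal actin that the fetal heart uses, followed with 5.87 and 6.08 in the sham pools and 8.96 and 9.50 in the TAC pools. Csrp3, a Z-disc protein on the list, had a TAC change of -0.08, the same as its sham change. Abra, an actin-binding protein of striated muscle that is not on the list, was 2.69-fold higher at 8 weeks after TAC, with signals of 1.31 and 1.37 in the sham pools and of 1.59 and 3.02 in the TAC pools. It was near the sham pools at 2 weeks and well above them at 8 weeks.

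Serum response factor, which binds the CArG box (2 C, then 6 letters A or T, then 2 G), is a known regulator of load-induced cardiac genes, so the promoters of the list were searched for this motif on both strands. Promoters of 300 bases around each start site came from RefSeq (GRCm38.p6), which held 22 promoters for 14 of the genes with a probe. A CArG box lay in the promoters of Acta1 and Fhl1, that is in 2 of 14 genes (14.3%), beside 488 of all 27025 genes (1.81%). Shown are the Acta1 promoter (chr8:123894726-123895025, minus strand) and the Fhl1 promoter with a match (chrX:56779433-56779732, plus strand) with the CArG box in capitals, and the Nppb promoter (chr4:147985650-147985949, plus strand), the member with the largest TAC change, which has no match in this window.
Acta1: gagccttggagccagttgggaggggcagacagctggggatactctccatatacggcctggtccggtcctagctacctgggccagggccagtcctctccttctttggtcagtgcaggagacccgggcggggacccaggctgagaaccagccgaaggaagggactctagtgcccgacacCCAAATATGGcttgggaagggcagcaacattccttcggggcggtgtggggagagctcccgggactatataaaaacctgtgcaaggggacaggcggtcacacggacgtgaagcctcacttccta
Fhl1: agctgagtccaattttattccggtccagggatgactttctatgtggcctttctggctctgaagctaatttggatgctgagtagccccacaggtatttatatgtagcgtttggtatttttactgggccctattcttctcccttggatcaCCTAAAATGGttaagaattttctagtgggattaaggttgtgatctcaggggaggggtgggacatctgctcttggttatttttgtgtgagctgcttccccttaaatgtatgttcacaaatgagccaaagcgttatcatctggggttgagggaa
Nppb: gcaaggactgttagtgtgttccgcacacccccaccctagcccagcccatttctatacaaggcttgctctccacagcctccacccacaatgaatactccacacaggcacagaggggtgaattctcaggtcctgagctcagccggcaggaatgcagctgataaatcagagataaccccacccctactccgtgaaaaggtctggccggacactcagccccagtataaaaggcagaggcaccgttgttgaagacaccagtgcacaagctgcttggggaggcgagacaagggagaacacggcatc
The CArG box of Acta1 begins 73 bases and that of Fhl1 102 bases before the start site. Acta1 had a TAC change of 0.54 and Fhl1, a LIM protein of the sarcomere, one of 0.57, against 1.11 for Nppb. A match of letters is a description and no measurement of binding. Srf itself, the gene of serum response factor, had a TAC change of 0.15 and a sham change of 0.14.

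**Figure D2:**
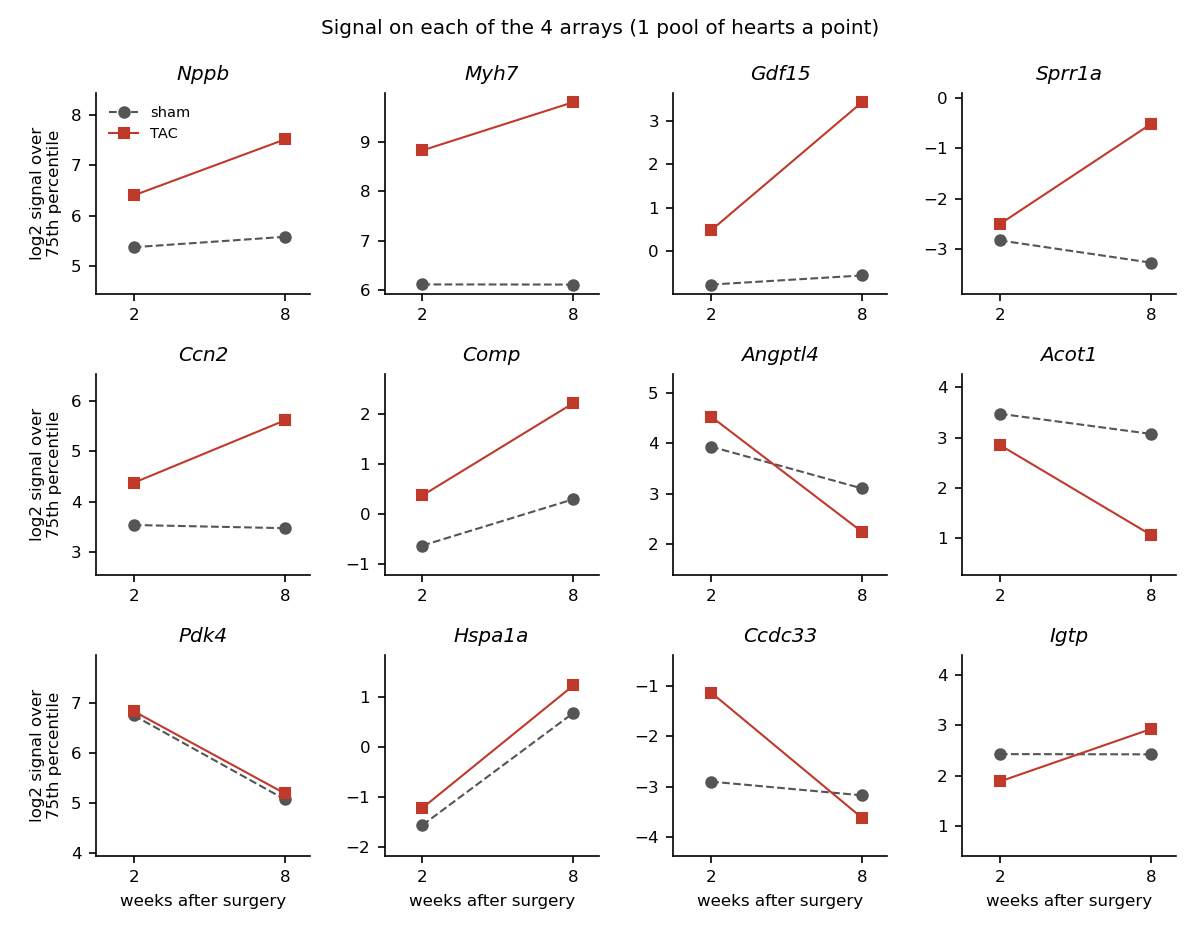
Signal of 12 genes (log2 over the 75th percentile of the array) against weeks after surgery, with squares and solid lines for TAC, circles and dashed lines for sham, and 1 pool a point, so there are no error bars. Nppb, Myh7, Gdf15, Sprr1a and Ccn2 were higher at 8 weeks in the TAC pools with a sham change within 0.5, Pdk4 and Hspa1a moved alike in both, and Ccdc33 was high in the TAC pool at 2 weeks alone.

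Genes of contraction itself moved little between the TAC pools. None of the 20 sarcomere genes and none of the 14 genes of calcium cycling and adult contraction passed 1.5-fold in either direction, by the probe used, and their median TAC changes were 0.00 and 0.05, beside sham medians of -0.04 and 0.04. For Tpm1, a tropomyosin of the thin filament, the probe used had a TAC change of -0.15 and the other 5 measured probes ranged from -0.90 to 0.14. Myh6 had signals of 10.86 and 10.74 in the sham pools and of 10.66 and 10.55 in the TAC pools, so its TAC change and its sham change were both -0.11, while a second probe had a TAC change of -0.36. Pura, a nucleic acid binding protein known to restrain Myh6, had a TAC change of 0.04. Ryr2, the calcium release channel of the sarcoplasmic reticulum, had the lowest TAC change of the calcium list, -0.41, with a sham change of 0.06. Atp2a2, the pump that returns calcium to that store, had 0.11.

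Membrane proteins and hormone receptors held a few larger changes. Of 20 measured ion channels and gap junction genes, 1 was over 1.5-fold higher and 1 over 1.5-fold lower. Scn4b, a beta subunit of the cardiac sodium channel, had 1.96 and 2.20 in the sham pools and 1.44 and 2.38 in the TAC pools, so the TAC pool was below its sham at 2 weeks and slightly above it at 8 weeks, a 1.93-fold difference between the TAC pools. Kcnv2, a silent potassium channel subunit, went the other way with a TAC change of -0.61 and a sham change of -0.07, and was below the sham pools at both times. Among 22 measured neurohormonal receptors and enzymes, Npr3, the clearance receptor of natriuretic peptides, was 2.09-fold higher at 8 weeks after TAC, and its sham change was 0.45. Npr1, the guanylyl cyclase receptor of the same peptides, had a TAC change of -0.67 and a sham change of -0.55. Adrb1, the main beta-adrenergic receptor of the heart, had -0.47 after TAC and -0.11 after sham surgery, and its second probe had a TAC change of -0.38.

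Matrix genes split by kind when each gene counted alike. Matricellular proteins and proteoglycans, which bind and organise fibres rather than form them, held 9 of 22 measured members past 2-fold upward at 8 weeks and 12 past 1.5-fold upward, against 1 past 1.5-fold downward. The median TAC change of this list was 0.64 and its median sham change 0.17, with 4 members over 1.5-fold higher after sham surgery. The median over members of the TAC change minus the sham change was 0.25. Summed signal, on the linear scale, was 550 and 555 in the sham pools and 863 and 855 in the TAC pools. The sum therefore did not rise between the TAC pools. Sparc alone gave 343 and 320 of this sum in the sham pools and 579 and 458 in the TAC pools. Ccn2, a connective tissue growth factor that fibroblasts and stressed cardiomyocytes secrete, had signals of 3.53 and 3.47 in the sham pools and of 4.37 and 5.62 in the TAC pools. Its TAC pool at 8 weeks stood above the other 3 pools, 2.37-fold over TAC at 2 weeks. Ltbp2, which binds fibrillin fibres, had -0.48 and 0.06 in the sham pools and 2.18 and 3.54 in the TAC pools, a 2.56-fold difference between the TAC pools.

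Several of these genes were also higher in the older sham pool. Comp, the cartilage oligomeric matrix protein, was 3.58-fold higher at 8 weeks after TAC, with signals of -0.63 and 0.29 in the sham pools and of 0.37 and 2.21 in the TAC pools. Its sham change was 0.92. Thbs1, an activator of transforming growth factor beta, had a TAC change of 1.17 and a sham change of 1.14. Cilp, a fibroblast-secreted matrix protein, had 1.17 and 0.95, and the proteoglycan Fmod had 1.09 and 1.62. Ccn5 and Thbs4 passed 2-fold with sham changes of 0.22 and 0.29. Postn, the periostin of activated fibroblasts, was at 0.28 and 0.32 in the sham pools and at 2.57 and 3.25 in the TAC pools, so its TAC change of 0.68 was smaller than its distance from sham at 2 weeks. Thbs2 had the lowest TAC change of the list, -0.62, with a sham change of 0.15.

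Fibre genes did not follow. Of 24 measured collagens and fibre proteins, 0 passed 2-fold in either direction, 11 were above and 13 below 0, and the median TAC change was -0.01. Col1a1, the main fibrillar collagen, had 3.57 and 3.44 in the sham pools and 4.54 and 4.64 in the TAC pools. It was about equally far above sham at both times, with a TAC change of 0.10. Fn1, fibronectin, had a TAC change of -0.41 and a sham change of 0.04, and Col4a1, a basement membrane collagen, had -0.38 and -0.06. Col8a1, a short-chain network collagen, was the member furthest up, with -1.09 and -1.37 in the sham pools and 0.79 and 1.43 in the TAC pools. Lox, the collagen cross-linking oxidase, had -0.61 by the probe used here and 0.09 by its other probe, so the probes disagree. Among 19 measured matrix proteases and inhibitors only Adamtsl2 passed 1.5-fold, with a TAC change of 0.71 and a sham change of 0.27.

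**Figure D3:**
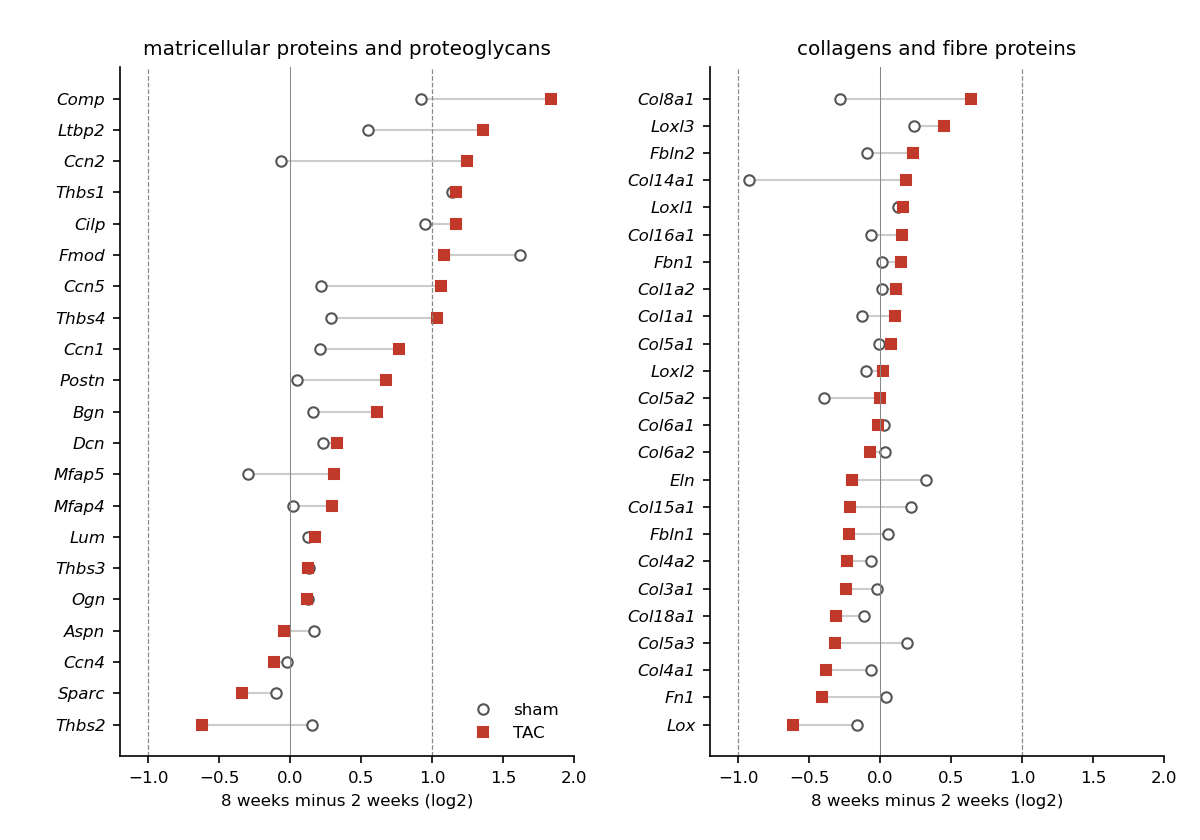
Change from 2 to 8 weeks on the log2 scale for 21 of the 22 measured matricellular and proteoglycan genes (left) and 24 collagen and fibre genes (right), with filled squares for TAC, open circles for sham and dashed lines at 2-fold; each point is a difference of 2 arrays. On the left 8 squares lie beyond 2-fold, and Thbs1, Cilp and Fmod have sham circles at 0.95 or more, while no square on the right reaches 2-fold.

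Among the genes with a steady sham pair, the largest rise between the TAC pools was that of a secreted factor. Gdf15, a stress-induced cytokine of the transforming growth factor beta family, had signals of -0.77 and -0.56 in the sham pools, 0.48 in the TAC pool at 2 weeks and 3.44 at 8 weeks. It was already above both sham pools at 2 weeks and was then 7.75-fold higher at 8 weeks. Il11, a fibrosis-linked cytokine of the interleukin 6 family, had -3.65 and -3.59 in the sham pools and -2.83 and -1.27 in the TAC pools, which is 2.95-fold. Angptl4, an inhibitor of lipoprotein lipase that fatty acids induce, had 3.93 and 3.10 in the sham pools and 4.53 and 2.23 in the TAC pools. It was thus above its sham at 2 weeks and below it at 8 weeks, 4.91-fold lower after TAC and 1.78-fold lower after sham surgery.

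Growth factor genes as a list had a median TAC change of 0.11 over 35 measured members, beside a sham median of 0.05, with 7 over 1.5-fold higher and 2 over 1.5-fold lower. Tgfb2 had a TAC change of 0.87, a second probe at 0.72, and a sham change of -0.07. Nrg1, the neuregulin that endothelial cells signal to cardiomyocytes with, had -0.22 and -0.87 in the sham pools and -1.10 and -0.15 in the TAC pools, so the TAC and sham pools changed order between the time points. The chemokines Ccl2, Ccl8 and Ccl7 had TAC changes of 0.97, 0.89 and 0.74 and sham changes of 0.55, 0.49 and 0.68. These monocyte attractants were therefore higher in both later pools.

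A few fuel genes were lower at 8 weeks and most stayed within 1.5-fold. Of 27 measured genes of fatty acid uptake and oxidation, 3 were over 2-fold lower at 8 weeks after TAC, 4 over 1.5-fold lower and 0 over 1.5-fold higher, and the median TAC change was -0.09. Acot1, a thioesterase that frees fatty acids from coenzyme A, had 3.47 and 3.07 in the sham pools and 2.85 and 1.06 in the TAC pools, 3.46-fold lower at 8 than at 2 weeks. The TAC pool at 8 weeks was the lowest of the 4. Pdk4, a kinase that turns off pyruvate oxidation in fasting, had 6.74 and 5.07 in the sham pools and 6.83 and 5.19 in the TAC pools. Its 3.11-fold fall after TAC was matched by a 3.19-fold fall after sham surgery. Ucp3, a mitochondrial carrier that fatty acids induce, had TAC and sham changes of -0.71 and -0.75 by the probe used, and its second probe had a TAC change of -1.79.

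The mitochondrial machinery stayed close to level on this scale. Among 24 genes of the citrate cycle and respiratory chain 20 were below 0 after TAC, with a median of -0.06, a lowest value of -0.24 and a sham median of -0.04, and none passed 1.5-fold. Glucose uptake and glycolysis had a median of 0.07 over 21 genes, beside 0.04 after sham surgery. Slc2a1, the basal glucose transporter, had a TAC change of 0.54 and a sham change of 0.12. Pfkfb1, an isoform of the enzyme that sets fructose 2,6-bisphosphate, had signals of 2.70 and 2.65 in the sham pools and of 1.72 and 0.98 in the TAC pools, so it was below sham at 2 weeks and lower again at 8 weeks. Outside the lists, Bdh1, which oxidises ketone bodies, was 2.34-fold higher at 8 weeks after TAC by the probe used, with TAC changes of 1.27 and 1.32 by its other probes and a sham change of 0.84.

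Immediate early genes and heat shock genes were higher at 8 weeks, and several were so in the sham pools too. Of 20 measured immediate early genes, 19 had a TAC change above 0, 7 were over 1.5-fold and 2 over 2-fold higher, with a median of 0.47 after TAC and of 0.24 after sham surgery. Atf3, a stress-induced transcription factor, had 0.22 and 1.47 in the sham pools and 0.90 and 3.34 in the TAC pools, which is 5.44-fold after TAC beside a sham change of 1.25. Nr4a2, an orphan nuclear receptor, had TAC and sham changes of 1.38 and 1.15, and a second probe at 0.65 after TAC. Socs3, the feedback inhibitor of interleukin 6 type signalling, had 0.01 and -0.12 in the sham pools and 0.24 and 1.22 in the TAC pools. Its sham pools were level, and the TAC pool at 8 weeks stood above the other 3.

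Hspa1a, the inducible chaperone of the HSP70 family, had -1.56 and 0.68 in the sham pools and -1.21 and 1.23 in the TAC pools, so its 5.43-fold difference between the TAC pools lay beside a sham change of 2.24. Dnajb1, a co-chaperone of HSP70, had a TAC change of 0.77 with a sham change of 0.12, and Hsph1, its nucleotide exchange factor, 0.83 and 0.55. Atf4, the transcription factor of the integrated stress response, had 0.49, and 0.67 by its second probe, with a sham change of -0.04. In the whole list of unfolded protein response and chaperone genes 25 of 26 members were above 0 after TAC, with a median of 0.27 beside a sham median of 0.11. Hspa5, the chaperone of the endoplasmic reticulum that marks the unfolded protein response, had only 0.10.

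Clock and interferon genes are known to move with the time of day and with infection, and both lists differed between the sham pools. The 18 measured clock genes had a median TAC change of 0.16 and a median sham change of -0.20 on the members measured on all 4 arrays, whose own TAC median was 0.14. Ciart, a repressor in the clock, had -1.22 and -2.52 in the sham pools and -2.76 and -1.84 in the TAC pools, so its TAC change of 0.92 stood against a sham change of -1.30. The sham pool at 2 weeks was the highest of the 4. Dbp, an output gene of the clock, had 0.31 after TAC and -0.67 after sham surgery, and Arntl, which drives the clock, 0.17 and 0.93. The time of day of collection is not given in the sources used here, and its part in these changes was not tested. The Ciart promoter (GRCm38.p6, chr3:95882179-95882478, minus strand, from RefSeq) holds 3 E-boxes (CACGTG), the site of the clock's activators, shown in capitals because its TAC and sham changes differ most in the list.
Ciart: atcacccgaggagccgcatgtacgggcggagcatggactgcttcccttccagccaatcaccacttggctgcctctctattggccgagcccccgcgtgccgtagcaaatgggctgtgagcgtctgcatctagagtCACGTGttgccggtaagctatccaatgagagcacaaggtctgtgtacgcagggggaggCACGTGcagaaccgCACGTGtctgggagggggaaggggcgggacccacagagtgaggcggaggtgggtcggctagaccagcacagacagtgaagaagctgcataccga
An E-box lay in the promoters of 5 of 16 clock genes (31.2%), beside 8.09% of all genes, and a D-box (TTATGTAA or TTATGCAA, both strands) in 2 of 16 (12.5%), beside 1.98%.

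Interferon-stimulated genes had a median TAC change of 0.09 and a median sham change of -0.21 over 26 members. Igtp, an immunity-related GTPase, had 2.43 and 2.42 in the sham pools and 1.88 and 2.93 in the TAC pools, 2.06-fold higher at 8 than at 2 weeks, with the TAC pool below sham at 2 weeks and above it at 8 weeks. Rsad2, an antiviral enzyme, went the other way with -0.81, and had -0.54 after sham surgery. Cell cycle genes had a median of 0.14 over 26 measured members, beside a sham median of -0.02, with 4 over 1.5-fold higher and 0 over 1.5-fold lower. Rrm2, the small subunit of ribonucleotide reductase, had -0.97 and -0.93 in the sham pools and -0.36 and 0.65 in the TAC pools, which is 2.02-fold. Ube2c, a ubiquitin conjugating enzyme of mitosis, had a TAC change of 0.96, or 0.99 by its second probe, and a sham change of 0.33. Glucocorticoid and FoxO target genes had a median TAC change of -0.11 over 20 measured members, beside a sham median of -0.15. Of these, 9 were above and 11 below 0 after TAC. The metallothioneins Mt2 and Mt1, which bind zinc and follow glucocorticoids, had TAC changes of -0.87 and -0.63 and sham changes of -1.58 and -0.88. Fkbp5 and Cebpd of this list had TAC changes of 0.41 and 0.32 and sham changes of -0.11 and -0.44. Irs2, an insulin receptor substrate on the same list, was 2.19-fold higher at 8 weeks after TAC with a sham change of 0.26.

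Marker lists of other cell types give the composition of the tissue on which these values rest. In bulk RNA, fewer cells of a type and less RNA per cell cannot be told apart, and their part in the changes above was not tested. Endothelial genes were lower at 8 weeks after TAC, with 13 of 16 measured genes below 0, a median of -0.24 and a sham median of -0.02. Of these, 4 were over 1.5-fold lower. Aplnr, the apelin receptor, had -0.63 and -0.68 in the sham pools and -0.04 and -1.03 in the TAC pools, so the TAC pool at 2 weeks was the highest and that at 8 weeks the lowest of the 4. Cldn5, the endothelial tight junction protein, had a TAC change of -0.67 and a sham change of 0.22. The broader markers moved less, with TAC changes of -0.18 for Pecam1 and -0.22 for Cdh5. Summed endothelial signal, in multiples of the 75th percentile, was 492 and 435 in the sham pools and 583 and 430 in the TAC pools. Fabp4 alone gave 206 and 148 of this sum in the sham pools and 241 and 147 in the TAC pools. Smooth muscle and pericyte genes had a median of -0.20 with 9 of 11 below 0, and a summed signal of 138 and 147 in the sham pools and 139 and 122 in the TAC pools. Acta2, smooth muscle actin, had a TAC change of -0.42 and a sham change of -0.03.

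Fibroblast markers had a median of 0.08 over 13 genes, beside 0.07 after sham surgery, and 8 were above 0. Their summed signal was 228 and 222 in the sham pools and 260 and 283 in the TAC pools. Gsn alone gave 157 and 150 of this sum in the sham pools and 145 and 160 in the TAC pools. Within the fibroblast list only 1 gene passed 1.5-fold upward and 1 downward after TAC. Meox1, a transcription factor of activated fibroblasts, was 2.10-fold higher at 8 weeks after TAC, with a sham change of 0.31. Scara5, a marker of resting ones, was 1.74-fold lower, with a sham change of 0.04. Macrophage and monocyte genes had a median of 0.03, beside 0.00 after sham surgery, with 12 of 20 above 0. C1qa, a complement gene of macrophages, had a TAC change of 0.43 and a sham change of 0.14. Ccr2, the receptor of recruited monocytes, had -0.94 and -0.37, and Cx3cr1 had -0.89 and -0.55, with a TAC change of -0.40 by its second probe. Lymphocyte genes had a median of -0.25 over 14 measured, beside a sham median of -0.10, with 10 below 0, and 5 of 19 were not well above background on any array. Neutrophil and mast cell genes had a median of -0.11 over 11 measured, beside a sham median of -0.12, with 8 below 0. The mast cell protease genes Cpa3 and Cma1, both dim, had TAC changes of -1.04 and -0.75 and sham changes of 0.41 and -0.13. The neutrophil gene S100a8 had 0.71 and -0.35. Of the other tissues looked for, 5 of 12 skeletal muscle genes (the adult fibre genes Myh1, Myh2, Myh4, Actn3 and Mylpf), 6 of 11 fat genes (with Adipoq, Lep, Plin1 and Ucp1) and 5 of 7 mesothelium and lung genes (with the surfactant genes Sftpc and Sftpa1) were not well above background on any array. Other genes of these lists were bright in the heart pools. Myl1, a skeletal and fetal myosin light chain, had 4.42 and 3.79 in the sham pools and 5.29 and 5.24 in the TAC pools. Cidea, a lipid droplet protein on the fat list, had 5.35 and 5.15 in the sham pools and 5.31 and 5.57 in the TAC pools, and the 4 measured fat genes had a median TAC change of 0.34 and a median sham change of -0.23. Erythroid genes had a median of 0.34 over 4 genes, beside -0.08 after sham surgery. The atrial genes Sln, Myl7 and Bmp10 were well above background on the TAC array at 2 weeks and not on that at 8 weeks. The 4 atrial genes measured on both had a median of -0.11, beside a sham median of 0.13, with 3 below 0. The 1 above 0 was Dkk3, with a TAC change of 0.81 and a sham change of 1.27.

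**Figure D4:**
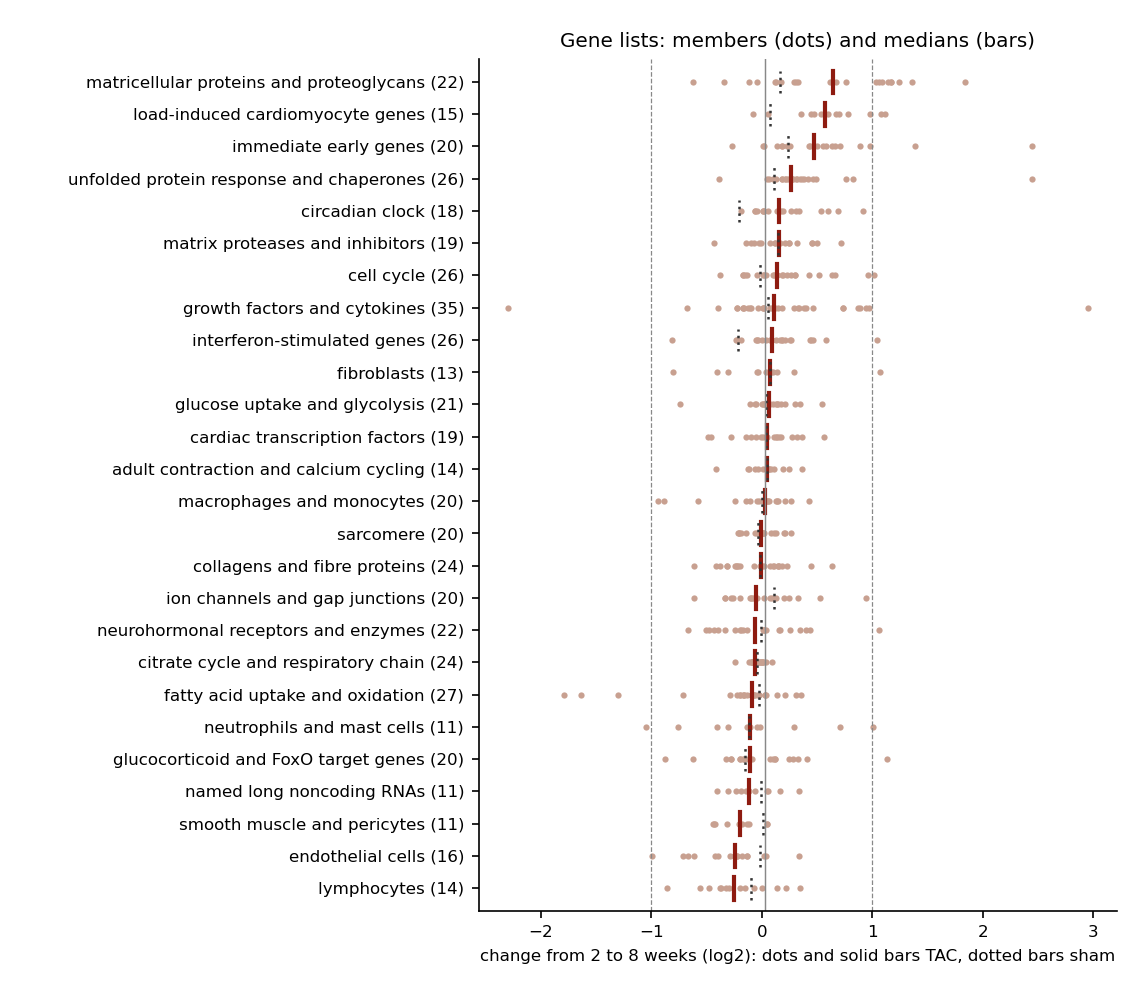
TAC change from 2 to 8 weeks on the log2 scale of the members (dots) and the median (solid bars) of 26 gene lists with at least 10 measured members, given in brackets, with dotted bars at the sham median, a thin line at the median of all genes and dashed lines at 2-fold. The matricellular, load-induced and immediate early lists have the highest medians (0.64, 0.57 and 0.47), and the lymphocyte and endothelial lists the lowest (-0.25 and -0.24).

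By size alone, the largest TAC changes with a steady sham pair included many dim genes and many with a single probe. After Gdf15 came Ifi207, an interferon-inducible gene, at 5.87-fold, Peli3, a ubiquitin ligase, at 4.69-fold, and Grk4, a receptor kinase, at 4.46-fold. The other 2 probes of Grk4 had TAC changes of -0.17 and -0.11, so the probes of this gene disagree. Otud1, a deubiquitinase, was 4.27-fold higher, with -2.35 and -2.04 in the sham pools and -2.26 and -0.17 in the TAC pools. Sprr1a, a small proline-rich protein that stressed cardiomyocytes make, had -2.83 and -3.28 in the sham pools and -2.51 and -0.51 in the TAC pools, which is 3.98-fold. BC048679, which ranked before Otud1, was 4.43-fold higher, and Acox2, E530011L22Rik, 1700012A03Rik and the glutathione transferase Gsta2 were between 2.85-fold and 3.75-fold higher. Gm4841 and Tdpoz2 had larger TAC changes than most of these, 3.14 and 2.98, but sham changes of 0.51 and -0.54 put them just outside the limit of 0.5.

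Among the 55 genes over 2-fold higher with a steady sham pair, several, such as Nppb, Ccn2 and Rcan1, already lay above both sham pools at 2 weeks. Against the mean of the sham pools, 32 were within 2-fold at 2 weeks and over 2-fold above at 8 weeks, 8 were over 2-fold above at both times, 14 stayed within 2-fold at both and 1 was over 2-fold below at 2 weeks and within at 8 weeks. Those above at both times that went further included Gdf15, Thbs4, the stretch-responsive Ankrd2, the keratin Krt18, the thyroid hormone activating deiodinase Dio2, the water channel Aqp8 and the G protein subunit Gng13. Dio2 had -3.49 and -3.50 in the sham pools and -1.09 and 0.15 in the TAC pools. It was far above both sham pools throughout. Aqp8 had a TAC change of 1.26, and 1.51 by its second probe, beside a sham change of 0.18.

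The 46 genes over 2-fold lower with a steady sham pair fell into 3 kinds. In 12 the TAC pool at 2 weeks was over 2-fold above the mean of the sham pools and the pool at 8 weeks was within 2-fold of it, in 9 the pool at 2 weeks was within and that at 8 weeks over 2-fold below, and in 25 both stayed within 2-fold. Ccdc33, a coiled-coil gene, and Dkkl1 and H1f6, both known from the testis, belonged to the first kind. Ccdc33 had -2.90 and -3.18 in the sham pools and -1.13 and -3.63 in the TAC pools, so only the TAC pool at 2 weeks was high. The interferon gene Ifnab, the adaptor subunit Ap1s2 and the kinase gene Rps6ka3 had the same shape, with TAC changes of -2.27, -1.95 and -1.84. The other probe of Ap1s2 had -0.11, and the other probes of Rps6ka3 had -0.02 and 0.01. Msln, a surface protein of mesothelium, had -2.64 and -2.72 in the sham pools and -1.52 and -3.28 in the TAC pools. Acot1, Ddc, the decarboxylase that makes dopamine and serotonin, and the nuclear receptor gene Nr5a2 belonged to the second kind, below sham at 8 weeks. Ddc had -0.22 and -0.57 in the sham pools and 0.16 and -1.59 in the TAC pools, and its other probe had a TAC change of -0.94 beside -1.75.

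Second probes agreed more often for rises than for falls. Of the 107 genes over 2-fold higher at 8 weeks after TAC, 15 had another measured probe. In 5 of these the others were all over 2-fold higher and in 11 all over 1.5-fold higher, while in 4 another probe fell short of 0.5 on the log2 scale. Of the 74 genes over 2-fold lower, 15 had another measured probe. In 1 of these the others were all over 2-fold lower and in 4 all over 1.5-fold lower, while in 10 another probe fell short of 0.5. The difference between these shares was not tested, since the genes share the same pair of arrays. The gene with agreeing probes among the falls was Adamts5, an aggrecanase, with -1.03 and -1.09, beside a sham change of -0.49 by the probe used. Among the rises they included Aqp8, Bdh1, Sphk1 and Tmem179. Sphk1, sphingosine kinase 1, had 0.46 and 0.78 in the sham pools and 1.39 and 2.60 in the TAC pools, and its second probe had a TAC change of 1.25 beside 1.21. By signal, 0.974% of probes below 0.25 times the 75th percentile were over 2-fold higher and 1.38% lower, against 0.339% and 0.122% of probes above the 75th percentile.

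The array also carried 16181 probes for long intergenic noncoding RNAs (lincRNAs), named by a range of the mm9 genome and a strand letter, for 4607 regions. The study used its arrays to look for transcripts of this kind. Of the 6283 such probes measured on both TAC arrays, 32 (0.509%) had passed 2-fold upward by 8 weeks and 49 (0.78%) downward, but the order of these counts turned with the scaling. They were 44 and 32 with median scaling, 38 and 33 with quantile normalization, 46 and 31 with cyclic loess, and 89 and 19 without scaling. Their median change on all 4 arrays was -0.13 after TAC and -0.05 after sham surgery. Agreement between probes of 1 region was rare at this size. In 1600 regions with at least 2 measured probes, 19 had any probe over 2-fold higher and 1 had all of them so, and 31 had any over 2-fold lower and 0 had all. The region with both probes higher lay on chromosome 9 from 78107225 to 78118850, letter F, with TAC changes of 1.49 and 1.52.

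Among the single lincRNA probes with the largest TAC changes, several had no second measured probe in their region, and where there was one it could differ. The probe A_30_P01030073, of the region on chromosome 5 from 110891642 to 110918642, had -2.62 and -2.13 in the sham pools and -2.24 and 0.68 in the TAC pools. The other measured probe of that region had a TAC change of -0.09. On chromosome 7 from 134643558 to 134644056, probe A_30_P01018735 had a TAC change of 2.64, while the lowest of the 3 measured probes had -0.07. Among the falls, probe A_30_P01027463 of the region on chromosome 5 from 34696192 to 34722842 was the only bright one, with 4.63 and 4.30 in the sham pools and 6.02 and 4.41 in the TAC pools. It was high in the TAC pool at 2 weeks alone, and another of the 3 measured probes of its region had -0.31. A gene annotation of the mm9 build was not used here, so these regions are given by position only.

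Lionheart is the lincRNA the study went on to characterise, a heart transcript that lies between Sestd1 and Zfp385b. Its locus is read here as the array region on chromosome 2 from 77152807 to 77155092 (mm9, letter R), whose length of 2285 is that of the annotated gene Gm13943 of the same chromosome. All 3 of its probes were well above background on all 4 arrays. Probe A_30_P01021391 had -1.13 and -0.87 in the sham pools and 0.17 and 0.97 in the TAC pools. The TAC pools were above both sham pools at 2 weeks and higher again at 8 weeks. The 3 probes had TAC changes between 0.68 and 0.81, with a mean of 0.76, that is 1.69-fold, and sham changes between 0.05 and 0.26, with a mean of 0.14. The 5 probes of the wider region around it on the same strand, from 77146893 to 77155643, had TAC changes between 0.16 and 0.76. Of its neighbours, Sestd1 had a TAC change of 0.07 and a sham change of 0.13, and Zfp385b, a dim gene, had 0.68 and 0.25, or a TAC change of 0.10 by its second probe.

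Some probes were well above background on 1 TAC array alone and give only a bound, the measured signal over the higher of the dim probe's own signal and the lowest signal called above background on that array. There were 1045 such probes on the array at 8 weeks, 244 of them at least 2-fold higher there, for 102 genes, and 1702 on the array at 2 weeks, 241 of them at least 2-fold higher there, for 89 genes. The highest bounds at 8 weeks were Ccdc70, at least 44.7-fold, and Klk6, a secreted serine protease, at least 24.3-fold. At 2 weeks they were Ifi214, an interferon-inducible gene, at least 50.01-fold, and Glipr1l2, at least 22.3-fold. None of these 4 genes was well above background on either sham array, so each stood out on a single array of the series.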

How the data were processed

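Per the labels and methods, pooled heart RNA was hybridised to an Agilent SurePrint G3 mouse 8x60K array, and the authors deposited 1 scanner file per array with spot intensity values that Feature Extraction had background-subtracted. The file headers name version 10.7.3.1 of that software and the submitters' processing notes 9.1. The deposited series table holds the same intensity multiplied by a constant on each array. Control spots and outlier spots were dropped, and repeated spots averaged to 1 value a probe. The log2 of the intensity, as deposited, minus the 75th percentile of the array's probes was taken, and probes had to be well above background on both TAC arrays. Genes were named through the transcript accession of the probe, and each took its probe of highest mean signal. With 1 array a condition no test was run, and a change is described by its fold, the sham change and the spot error. Named were the largest changes with a sham change within 0.5, the largest shared with sham, the past-2-fold members of the lists and the genes the study studied. Genes outside this rule, such as Nppa, Acta1, Fhl1, Abra, Dio2, Aqp8 and Sphk1, and the counts by single array, by other probes and by time course were chosen after their values were seen. The members and lists were chosen with earlier results of these data known. Python 3.11.15 with numpy 2.4.6, pandas 2.3.3, scipy 1.17.1 and matplotlib 3.10.9, and R 4.3.3 with limma 3.58.1 for normexp, quantile and cyclic loess, were used and tested on simulated data. Median, quantile, loess and no scaling, normexp, other filters, other folds and the series table were tried as alternatives. A few list members are counted but not reported by name here.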

Additional observations from a re-analysis of the deposited data

Results flagged for a closer look

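In 3 of the probes measured on all 4 arrays the TAC change and the sham change were both over 2-fold and of opposite sign. Each rests on 1 array a condition, and the difference between the TAC and sham changes was not tested. The lincRNA probe A_30_P01019871, of the region on chromosome 5 from 29779847 to 29784383 (mm9, letter F), had a TAC change of 1.95 and a sham change of -2.21, with signals of -0.81 and -3.02 in the sham pools and of -2.90 and -0.95 in the TAC pools. Probe A_55_P1972975, for which no gene was named, had a TAC change of -1.14 and a sham change of 2.70, with -3.68 and -0.98 in the sham pools and -0.70 and -1.84 in the TAC pools. Probe A_55_P2092717, of the tripartite motif gene Trim43b, had a TAC change of -1.12 and a sham change of 2.03, with -3.57 and -1.54 in the sham pools and -3.15 and -4.26 in the TAC pools.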

How the results depend on the processing

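No replicate could be left out and no paired analysis was possible because each condition has 1 array. All 47 genes past 2-fold that the naming rule selected kept their sign under every scaling and background correction tried. They had been selected for a TAC change past 2-fold on these same arrays, and the settings moved the median by at most 0.27. Keeping the sign was thus close to fixed in advance and gives no support to these genes. Of the 47 genes, 27 stayed past 2-fold after normexp background correction and 43 to 47 under the others. Genes named outside that rule were not in this check. Among all 211 genes the rule selected, many TAC changes moved by more than the spot SD. Median scaling moved 132 of them, no scaling 177, normexp 104 and quantile normalization 9. Counts past 2-fold also moved, and are given as higher and lower at 8 weeks after TAC. Without scaling the median TAC change of all probes moved by 0.27, and the counts were 455 and 68 for probes, 231 and 27 for genes, 89 and 19 for lincRNA probes, and 262 and 46 for probes with a sham change within 0.5, where the scaled counts were 103 and 112. Median scaling moved that median by 0.10 and gave 44 higher and 32 lower lincRNA probes. Cyclic loess gave 115 lower probes, 48 lower genes, 46 higher and 31 lower lincRNA probes and 72 lower probes with a small sham change. Normexp gave 54 and 27 probes, 37 and 13 genes, 7 and 8 lincRNA probes, 41 and 23 probes with a small sham change, and 28 and 33 probes after sham surgery. Without a background filter there were 1560 and 2788 probes after TAC and 2363 and 1524 after sham surgery, so the order of TAC and sham for rises turned. With a signal above the array's median there were 125 and 90 after TAC and 65 lower after sham. At 1.5-fold there were 845 and 1265 after TAC and 516 and 536 after sham, and at 3-fold 49 and 28 after TAC and 40 and 45 after sham. At 3-fold the lower probes were thus fewer after TAC than after sham. Quantile scaling, the percentile over spots, the series table, kept outlier spots and a filter on all 4 arrays moved no count by over 1.5 times. Without scaling the medians of all 32 lists moved by more than the spot SD, with normexp those of 3, and under the other alternatives 0. The mean TAC change of the Lionheart region was 1.03 without scaling. The cause of these differences was not tested. The spot SD of 0.284 below 0.25 times the 75th percentile limits the values of dim probes.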

Other observations

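Some of the largest TAC changes belonged to probes that could not be paired with a gene here. Probe A_55_P2171258 had signals of -3.08 and -3.28 in the sham pools and of 0.18 and -3.83 in the TAC pools, 16.1-fold lower at 8 than at 2 weeks. Probe A_55_P1998072 had -2.48 and -2.33 in the sham pools and 0.91 and -2.59 in the TAC pools, which is 11.3-fold lower. Both were high in the TAC pool at 2 weeks alone. Probe A_55_P1957272 was 6.01-fold and probe A_55_P2328425 4.796-fold higher at 8 weeks after TAC, with sham changes of -0.17 for each, and both were high in the TAC pool at 8 weeks alone.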
